A study of Mus musculus with 32 samples.

Results

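The genes described here are 10 genes of the T cell receptor complex and of the first steps of its signalling: Cd3e, Cd3d, Cd3g, Cd2, Cd5, Cd4, Cd8a, Cd8b1, Lck and Zap70. Their probes were found on the arrays by RefSeq identifier. The brightest probe of each gene over all arrays was used, so that 10 of the 22907 genes with a symbol are described. Total RNA was measured on 32 one-colour arrays of mouse tissue. The mice bore MCG 101, a sarcoma of methylcholanthrene origin that is passed on by transplantation. Hosts were labelled EP2 wild type (EP2+/+) or EP2 knockout (EP2-/-). EP2 is the prostaglandin E2 receptor encoded by Ptger2. All hosts were given the same tumor cells, so the genotype is that of the host and not of the implanted cells. From hosts of each genotype both the tumor and the tumor stroma were sampled. Tissue and host genotype together made 4 groups of 8 arrays, with 4 females and 4 males by label in each. The labels used here give no age, strain background or time after implantation.

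The T cell receptor recognises peptide on MHC molecules but has no signalling tail of its own. It is carried to the surface and signals through the CD3 chains, encoded by Cd3e, Cd3d and Cd3g. Their tails are phosphorylated by Lck, a kinase bound by the coreceptors CD4 and CD8. Zap70 is the kinase that docks on phosphorylated CD3 and zeta chains, CD2 is an adhesion and costimulatory receptor, and CD5 dampens receptor signalling. Prostaglandin E2, made in many tumors, is known to raise cAMP in T cells through EP2 and EP4 and to restrain receptor signalling. In bulk tissue, fewer T cells and less RNA per T cell cannot be told apart.

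The 3 CD3 genes lie side by side on mouse chromosome 9 (GRCm38.p6), with Cd3g at 44969572 to 44980431, Cd3d at 44981769 to 44987052 and Cd3e at 44998735 to 45009663. Cd3g and Cd3d are transcribed away from each other from starts separated by 1337 bases. Cd8b1 (71322788 to 71337492) and Cd8a (71373427 to 71379171) are neighbours on chromosome 6, which also holds Cd4 (124864693 to 124888247). Lck lies at 129548344 to 129573641 on chromosome 4, Zap70 at 36761798 to 36782821 on chromosome 1, Cd2 at 101275908 to 101287939 on chromosome 3 and Cd5 at 10718107 to 10739026 on chromosome 19. RefSeq promoter sequences (GRCm38.p6, 250 bases before the start and 50 from it on) were found for 7 of the 10 genes. Those of the neighbouring CD3 genes are shown as the core of the complex, and both of Lck because it was the member called higher in tumor. Letters that match a RUNX, ETS, GATA or E-box motif on either strand are in capitals.

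Cd3g promoter, chr9:44980382-44980681, minus strand: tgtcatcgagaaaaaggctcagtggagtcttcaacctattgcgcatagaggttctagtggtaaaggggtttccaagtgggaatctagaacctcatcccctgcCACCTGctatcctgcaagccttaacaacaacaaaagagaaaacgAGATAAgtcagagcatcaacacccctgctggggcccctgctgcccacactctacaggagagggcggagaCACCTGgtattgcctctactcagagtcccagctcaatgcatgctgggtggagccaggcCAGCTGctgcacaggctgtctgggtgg
Cd3d promoter, chr9:44981536-44981835, plus strand: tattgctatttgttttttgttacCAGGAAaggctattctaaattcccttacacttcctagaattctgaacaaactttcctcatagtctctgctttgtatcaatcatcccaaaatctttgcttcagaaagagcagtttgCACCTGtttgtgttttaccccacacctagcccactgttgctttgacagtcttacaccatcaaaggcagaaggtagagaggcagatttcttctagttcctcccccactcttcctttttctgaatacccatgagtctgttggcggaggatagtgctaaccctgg
Cd3e promoter, chr9:45009562-45009861, minus strand: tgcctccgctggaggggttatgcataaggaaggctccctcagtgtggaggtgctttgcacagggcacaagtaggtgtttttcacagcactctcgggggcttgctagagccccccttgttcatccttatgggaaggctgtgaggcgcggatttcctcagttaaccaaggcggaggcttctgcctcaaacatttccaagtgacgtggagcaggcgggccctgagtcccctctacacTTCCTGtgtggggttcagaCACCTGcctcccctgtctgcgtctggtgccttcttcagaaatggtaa
Lck upstream start promoter, chr4:129573592-129573891, minus strand: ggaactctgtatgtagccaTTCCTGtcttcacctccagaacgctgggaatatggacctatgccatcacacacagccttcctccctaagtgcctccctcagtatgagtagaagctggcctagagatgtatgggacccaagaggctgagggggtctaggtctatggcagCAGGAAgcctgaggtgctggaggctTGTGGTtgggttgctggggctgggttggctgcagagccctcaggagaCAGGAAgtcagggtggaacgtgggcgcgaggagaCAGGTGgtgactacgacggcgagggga
Lck downstream start promoter, chr4:129558323-129558622, minus strand: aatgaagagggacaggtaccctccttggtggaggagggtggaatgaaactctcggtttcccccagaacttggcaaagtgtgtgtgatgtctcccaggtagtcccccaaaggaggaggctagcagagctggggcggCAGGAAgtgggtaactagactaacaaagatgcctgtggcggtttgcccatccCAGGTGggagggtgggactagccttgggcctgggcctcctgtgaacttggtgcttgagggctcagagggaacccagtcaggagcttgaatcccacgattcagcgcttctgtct

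The E-box letters searched, CAGNTG, are in all 5 windows, against 51.4% of 32851 promoters in the table. The ETS letters, CAGGAA, are in the Cd3d and Cd3e windows and in both Lck windows (30.6% of all promoters), on one strand or the other. The GATA letters, AGATAA, are among these 5 only in the Cd3g window (11.2%). The RUNX letters, TGTGGT, are among these 5 only in the upstream Lck window (16.8%). No match overlaps another. The Lck starts are 15269 bases apart. The upstream one is known as the distal promoter, used in mature T cells, and the other as the proximal promoter, used mainly in thymocytes. The matches describe letters in these windows and say nothing of binding, and the arrays do not separate transcripts of the Lck promoters.

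Between 49.99% and 76.3% of spots per array were well above background and no spot reached saturation. Precision is limited by how many arrays there are. The labels do not say that each array comes from a separate animal, and replicate numbers recur across the tissues, so p-values measure the spread between these samples. Ptger2, whose loss defines the knockout, was dim, with -4.97 ± 0.93 (log2 relative level, SD, n = 8) in wild-type tumor, -3.91 ± 0.77 in knockout tumor, and in stroma -4.02 ± 0.96 in wild type and -3.17 ± 0.49 in knockout. It was thus not lower in arrays labelled knockout, differing by 1.06 ± 0.41 (SE) in tumor and 0.85 ± 0.37 in stroma, with limma adjusted p = 0.977 and 0.159. Where its probe lies relative to the deleted part is not given in the sources used here, so this signal does not check the genotype, and wild type and knockout below are the libraries so labelled. On 5 arrays labelled male, the mean of 4 Y-linked genes did not exceed that of every female array: wild-type stroma 9 and numbers 95 and 99 of knockout stroma and knockout tumor. The arrays wild-type stroma 65 and 82 had the lowest skeletal muscle marker sums of that group and cell cycle sums of 135 and 148, against 2.71 to 85.7 on its other arrays and 84.4 to 174 in tumor.

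**Figure D1:**
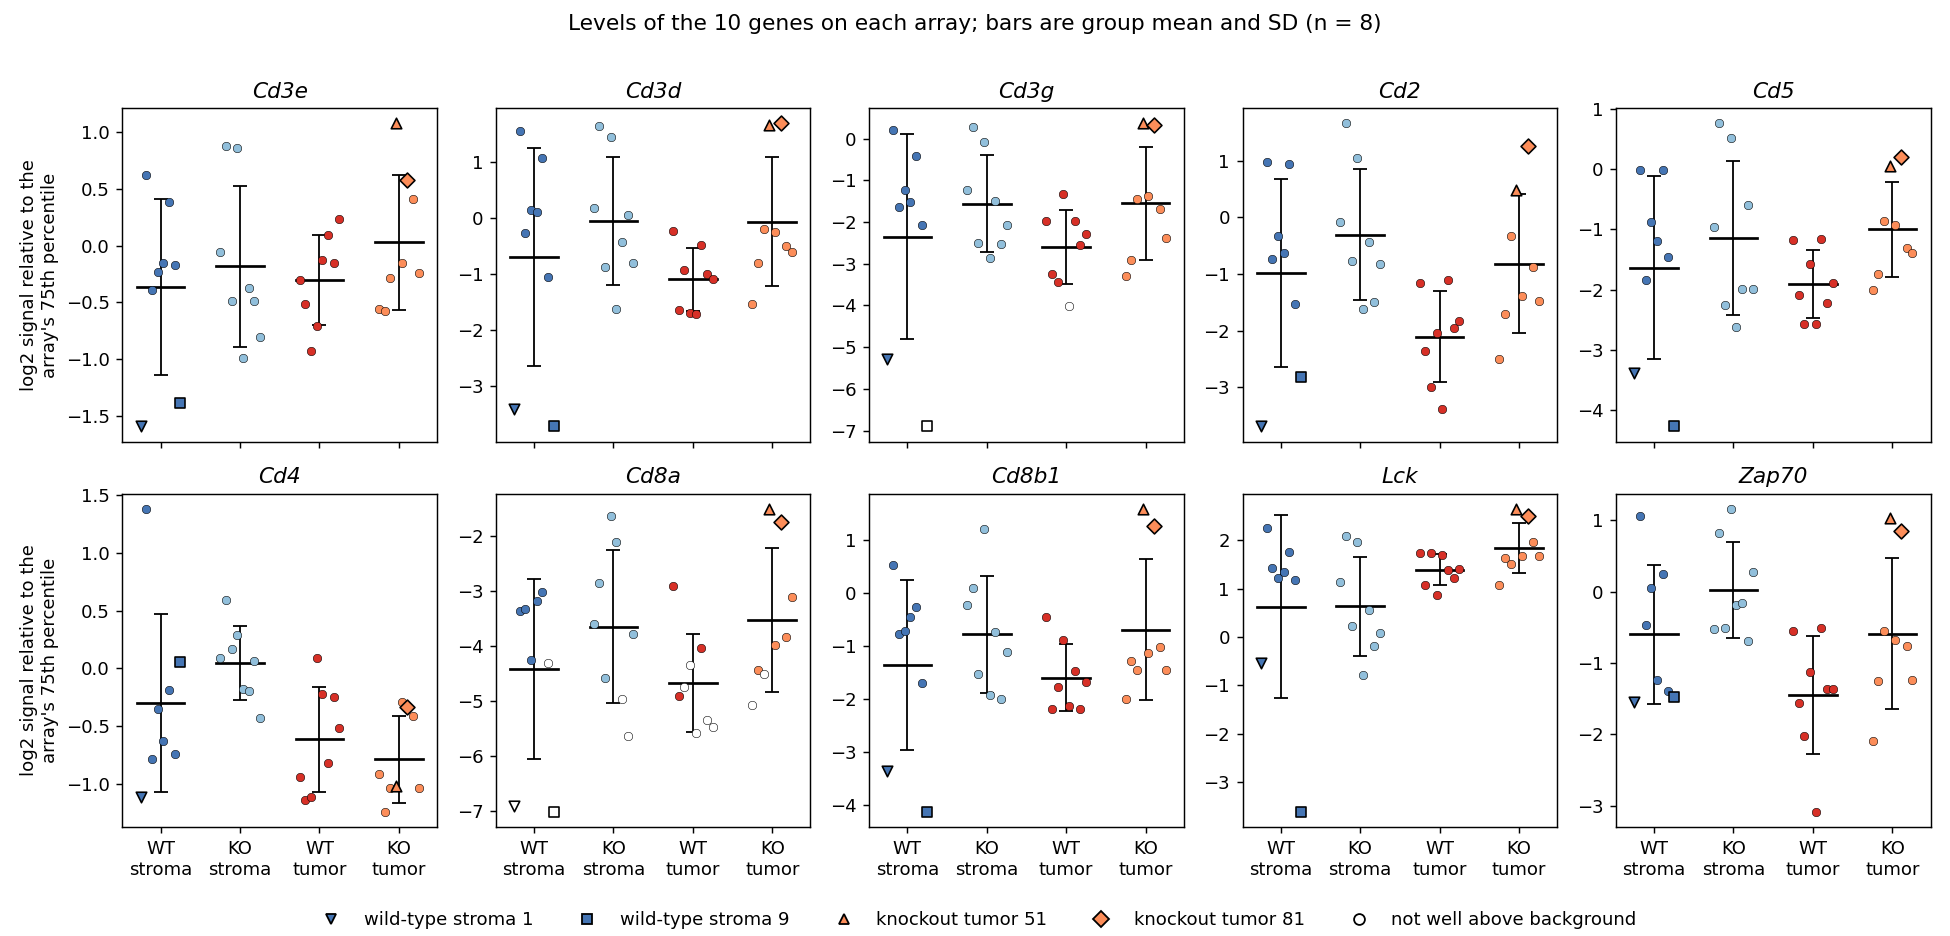
Log2 level of each of the 10 genes on every array, relative to the array's 75th percentile, by group. Points are arrays (white where not well above background) and bars the group mean and SD over 8 arrays. Wild-type stroma 1 and 9 lie lowest for most genes, and knockout tumor 51 and 81 highest in tumor for most.

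All levels are log2 ratios of the processed signal to the 75th percentile of its array, so that 0 is the signal below which 75% of probes lie. Levels of different genes come from different probes and are not compared with each other. Cd3d, a core chain of the complex, had its lowest, median and highest arrays at -1.71, -1.04 and -0.22 in wild-type tumor and at -1.53, -0.37 and 1.69 in knockout tumor. In stroma they were -3.72, -0.07 and 1.56 in wild type and -1.62, -0.18 and 1.64 in knockout. The wild-type tumors were the narrowest group and overlapped with every other one, and the low end of stroma was set by wild-type stroma 9 and by wild-type stroma 1 (-3.41).

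Cd3g, the chain paired with epsilon, was also lowest on average in wild-type tumor. It ran from -4.02 to -1.32 around a median of -2.42 in wild-type tumor, and from -3.29 to 0.36 around -1.56 in knockout tumor. In stroma it ran from -6.90 to 0.22 (median -1.58) in wild type and from -2.85 to 0.28 (median -1.79) in knockout. Cd3g was not well above background on stroma array 9 and tumor array 65, both wild type. The groups overlapped in both tissues.

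Cd3e, the chain that pairs with both other CD3 proteins, moved over a narrower range. Its group means were -0.30 ± 0.40 in wild-type tumor, 0.03 ± 0.59 in knockout tumor, and in stroma -0.37 ± 0.78 for wild type and -0.18 ± 0.71 for knockout (SD, n = 8 each). A second, dimmer Cd3e probe was well above background on only 4 of 8 arrays in every group, while the second Cd3d probe had group means of -1.96 in wild-type tumor and -0.79 in knockout tumor, 1.17 apart, against 1.03 for the first.

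The surface receptors Cd2 and Cd5 were lowest on average in wild-type tumor as well. Cd2 had its lowest, median and highest arrays at -3.39, -2.0 and -1.11 in wild-type tumor and at -2.51, -1.13 and 1.26 in knockout tumor, and in stroma at -3.69, -0.69 and 0.98 for wild type and -1.62, -0.60 and 1.66 for knockout. For Cd5 they were -2.58, -1.99 and -1.16 in wild-type tumor, and -2.01, -1.12 and 0.20 in knockout tumor. In stroma Cd5 ran from -4.27 to -0.01 in wild type and from -2.62 to 0.76 in knockout. Above all 8 wild-type tumors lay the knockout tumors 15, 51, 81 and 95 for Cd2 and 15, 51, 59B and 81 for Cd5, and the other 4 overlapped with them.

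Of the coreceptors, Cd8b1 behaved like the CD3 genes and Cd4 did not. Cd8b1, the beta chain of CD8, had its lowest, median and highest arrays at -2.18, -1.73 and -0.45 in wild-type tumor and at -2.01, -1.21 and 1.58 in knockout tumor. In stroma it ran from -4.13 to 0.52 in wild type and from -2.0 to 1.20 in knockout. Cd8a, the alpha chain, was dim: its brightest probe was well above background on 3 of 8 wild-type tumors, 6 of 8 knockout tumors, 5 of 8 wild-type stroma arrays and 6 of 8 knockout stroma arrays, and its other probe on 0 to 2. Cd4 had its lowest, median and highest arrays at -1.13, -0.67 and 0.09 in wild-type tumor, -1.24, -0.96 and -0.29 in knockout tumor, and in stroma -1.11, -0.49 and 1.38 for wild type and -0.43, 0.08 and 0.59 for knockout. Knockout tumor 51, the highest tumor array for Cd8b1, stood at -1.01 for Cd4, below the median of its group.

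Of the kinases, Lck had the narrowest tumor groups. It ran from 0.87 to 1.74 around a median of 1.40 in wild-type tumor, and from 1.08 to 2.65 around 1.67 in knockout tumor. In stroma it ran from -3.62 to 2.25 (median 1.28) in wild type and from -0.78 to 2.08 (median 0.39) in knockout. Every tumor array lay above 7 of the 16 stroma arrays. Zap70 had its lowest, median and highest arrays at -3.09, -1.36 and -0.51 in wild-type tumor, -2.09, -0.72 and 1.04 in knockout tumor, and in stroma -1.55, -0.85 and 1.06 for wild type and -0.69, -0.17 and 1.16 for knockout. When the 4 group means of each gene were put in order, wild-type tumor was lowest for 7 of the 10 genes and a knockout group highest for all 10. None of the 30 neighbouring pairs of means differed by more than the larger SD of the pair.

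The first comparison asked whether the host's EP2 genotype went with a different level of these genes in the tumor. The mean of 9 members, all but Cd4, was higher on average in knockout than in wild-type tumors, and none passed the test. The largest difference was that of Cd2, 1.29 ± 0.48 on the log2 scale (SE, 95% interval 0.27 to 2.31), followed by Cd3g (1.05 ± 0.54), Cd3d (1.03 ± 0.44), Cd5 (0.91 ± 0.32) and Cd8b1 (0.91 ± 0.49). The fitted difference of Cd8a was 1.14 ± 0.49, but with only 3 of 8 wild-type tumors well above background it passed the filter mainly through the knockout group. Zap70 (0.86 ± 0.45), Lck (0.44 ± 0.23) and Cd3e (0.33 ± 0.25) differed less, and Cd4 by -0.17 ± 0.22 (-0.63 to 0.29).

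In limma over 23752 genes the adjusted p was 0.977 for each of the 10 genes, and 0 genes (0%) were called. At an unadjusted limma p under 0.05 were Cd5, Cd2 and Cd3d, and Cd8a with the limit just given, against 3.33% of all genes tested, and 50.7% of all genes had a difference above 0. The median difference of the members was 0.91, against 0.00449 over all genes tested. The groups overlapped for all 10 members, as for every gene tested (0% did not overlap). Without knockout tumor 51 and 81, the highest arrays, the members' median was 0.35, and Cd8a was no longer tested. Leaving out number 51 alone gave 0.63. Without both arrays Cd2 differed by 0.73, Cd5 by 0.53 and Cd8b1 by 0.20.

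**Figure D2:**
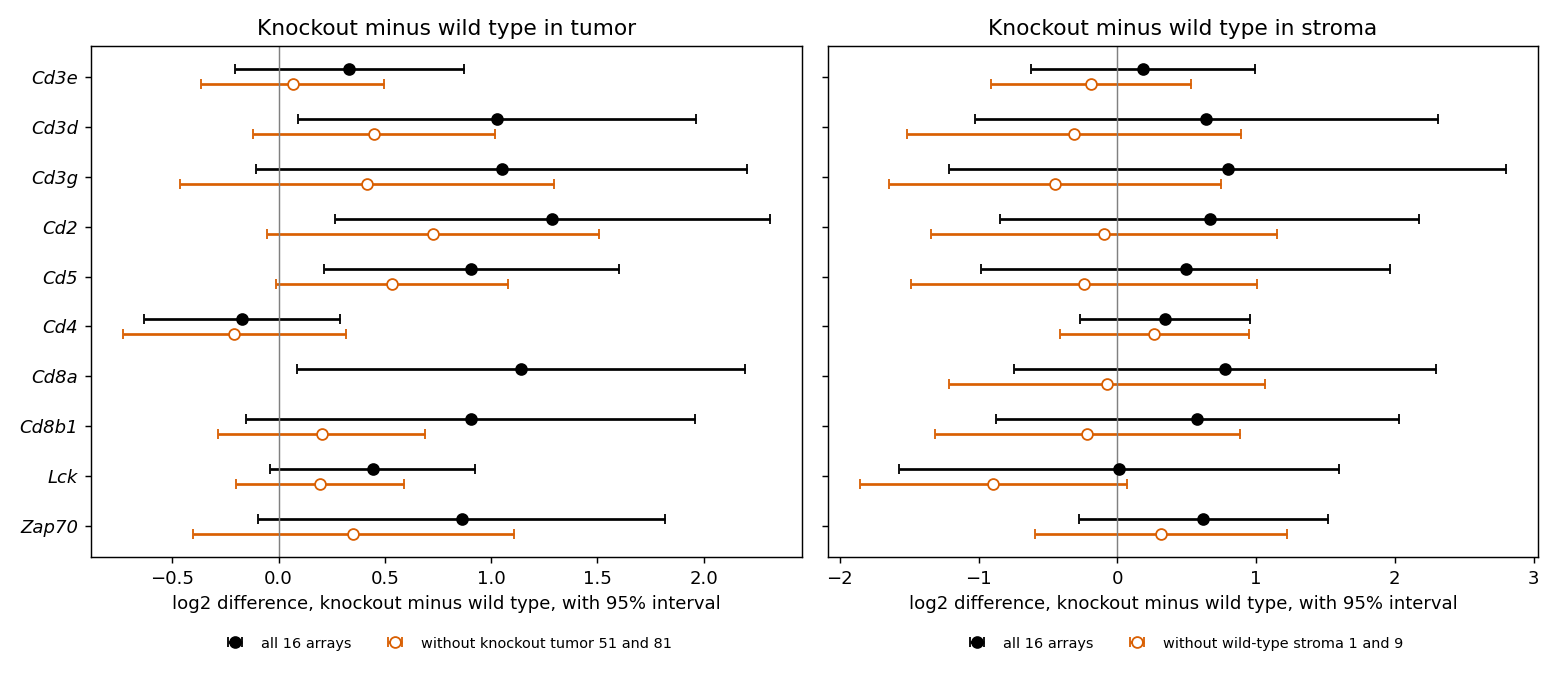
Log2 difference, knockout minus wild type, of each gene in tumor (left) and stroma (right), with 95% intervals from limma. Filled points use all 16 arrays of the tissue and open points leave out the 2 named arrays. The intervals without knockout tumor 51 and 81 all include 0, and without wild-type stroma 1 and 9 most stroma differences lie below 0.

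The genotype difference in tumor varied between batches and between sex labels. The members' median difference was 1.40 in hosts labelled male alone and 0.39 in hosts labelled female alone. The arrays labelled male include knockout tumor 95 and 99, whose Y-linked genes went against that label. The difference between the sexes was not tested. Arrays scanned on the first day, 6 knockout and 3 wild-type tumors, differed by a median of 1.27 with all 10 members higher, whereas those of the second day, 2 knockout and 5 wild-type, differed by -0.10 with 1 of 10 higher. Only 3 slides held tumors of both genotypes, with medians of 2.82, 0.63 and -0.24. Each of them held 1 knockout tumor, numbers 81, 95 and 12 in that order. With scan day as a block in the fit the median was 0.77, and with slide as a fixed block it was 0.88 and Cd4 turned to 0.10. Both high arrays, 51 and 81, were scanned on the first day.

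The same comparison in stroma gave a positive mean difference for all 10 members, again with none past the test. The largest were those of Cd3g (0.79 ± 0.94, SE), Cd8a (0.78 ± 0.71), Cd2 (0.67 ± 0.71), Cd3d (0.64 ± 0.78) and Zap70 (0.62 ± 0.42). Lck differed by 0.01 ± 0.74 (95% interval -1.58 to 1.60). The members' median was 0.60, against 0.08 over the 24784 genes tested, of which 54.5% were above 0. The adjusted p ranged from 0.317 to 0.994 in limma. At an unadjusted p under 0.05 there were 0 of 10 members, against 28.2% of all genes, while 0% passed after adjustment. The genotypes overlapped for all 10 members, as for all but 0.129% of genes.

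This direction rested on the arrays wild-type stroma 1 and 9, each among the 2 lowest of 16 stroma arrays for 9 of the 10 members. Without both, 8 of 10 members were lower in knockout than in wild-type stroma, with a median of -0.20 and Lck at -0.89. Cd4 (0.27) and Zap70 (0.31) remained above 0. Without number 9 alone the members' median was 0.14 and 8325 genes over the whole array were called, against 0 with it, and no member was. Array 9 was also the one whose Y-linked genes went against its male label. It had the highest skeletal muscle sum of its group (4678, relative to 1 at the 75th percentile) and the lowest macrophage (19.2), NK cell (0.0970) and cell cycle (2.71) sums. Array 1 had a muscle sum of 2096, within the range of the group. Its T cell marker sum was the lowest of the group (0.861). That list holds Cd3e, Cd3d, Cd3g, Cd2 and Cd5, so this sum is not separate from the members' own values. The part of tissue make-up in this difference was not tested.

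The stroma difference also varied between batches. On the first scan day, with 3 knockout and 4 wild-type arrays, the members' median was -0.36 with 8 of 10 lower, and on the second, with 5 and 4, it was 1.54 with all 10 higher. On the 5 slides that held both genotypes the medians were 1.49, 3.36, 2.30, -0.54 and -0.28. Each held 1 to 3 knockout and 1 or 2 wild-type arrays. Wild-type stroma 9 was the only wild-type array behind 3.36, and wild-type stroma 1 the only one behind 2.30. Both were scanned on the second day, so the batch values are not separate from these arrays. A fixed block for slide gave a median of 1.28 with all 10 members higher. With array weights in limma 1 of 10 members, Cd4, passed (0.66, adjusted p = 0.00239), against 64.6% of all genes, and 5 members were below 0.

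The 2 genotype differences were compared directly as an interaction over all 32 arrays, stroma minus tumor. No member passed (0% of 27121 genes were called), and the adjusted p ranged from 0.407 to 0.910 in limma. At an unadjusted p under 0.05 there were 0 members, against 21.1% of all genes. The interaction was below 0 for 9 members, while 55.2% of all genes were above 0. It ran from -0.15 ± 0.47 for Cd3e to -0.62 ± 0.89 (SE) for Cd2, and 0.52 ± 0.37 for Cd4. The members' median was -0.35. With scan day as a block it was 0.11 and 7 of 10 members were above 0, with slide as a fixed block it was 0.72 and all 10 were, and without knockout tumor 51 and 81 it was 0.23. It was -1.18 without wild-type stroma 1 and 9, -0.81 without number 9 alone, -0.77 without the arrays against their sex label and -0.75 with array weights, with 9 of 10 members below 0 in each. The direction and size of the interaction thus depended on the arrays and blocks used. Between arrays labelled male and female no member passed in either tissue (0% of all genes), nor at an unadjusted p under 0.05, which 7.21% of all genes reached in tumor and 2.24% in stroma, with members' medians of -0.11 in tumor and -0.05 in stroma (male minus female). When the arrays against their sex label were left out, the medians were 0.17 in tumor, with 8 of 9 tested members higher, and 0.58 in stroma, with 9 of 10 higher. Leaving out 1 array moved them from -0.33 (knockout tumor 81) to 0.16 (knockout tumor 51) in tumor, and from -0.41 (wild-type stroma 1) to 0.29 (wild-type stroma 9) in stroma.

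The comparison of stroma with tumor asked where these genes were higher. Zap70 and Cd4 were higher in stroma and Lck was higher in tumor, and the other 7 members did not pass. Cd4 was higher by 0.57 ± 0.18 (SE, 95% interval 0.20 to 0.95, 1.49-fold), with an adjusted p of 0.00792 in limma. Zap70 was higher by 0.73 ± 0.32 (0.08 to 1.38, 1.66-fold, adjusted p = 0.0468). Lck was lower in stroma by 0.99 ± 0.40 on the log2 scale (interval -1.81 to -0.16, 1.98-fold), with an adjusted p of 0.0358. Thus 3 of 10 members were called, against 62.8% of the 27121 genes tested.

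For the CD3 chains and CD8 the intervals of the tissue difference included 0. Cd3d differed by 0.21 ± 0.47 (-0.75 to 1.17), Cd3g by 0.12 ± 0.57 (-1.04 to 1.28) and Cd3e by -0.14 ± 0.23 (-0.62 to 0.34). Cd8b1, Cd5 and Cd8a differed by 0.07, 0.06 and 0.06, and Cd2 by 0.82 ± 0.44 (adjusted p = 0.110). The members' median was 0.10, against -0.14 over all genes. Leaving out 1 array moved it from -0.05 (wild-type stroma 4) to 0.38 (wild-type stroma 9), with 4 to 8 members higher, and without wild-type stroma 1 and 9 it was 0.55. No member's tissues separated completely, as for all but 0.0664% of genes.

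**Figure D3:**
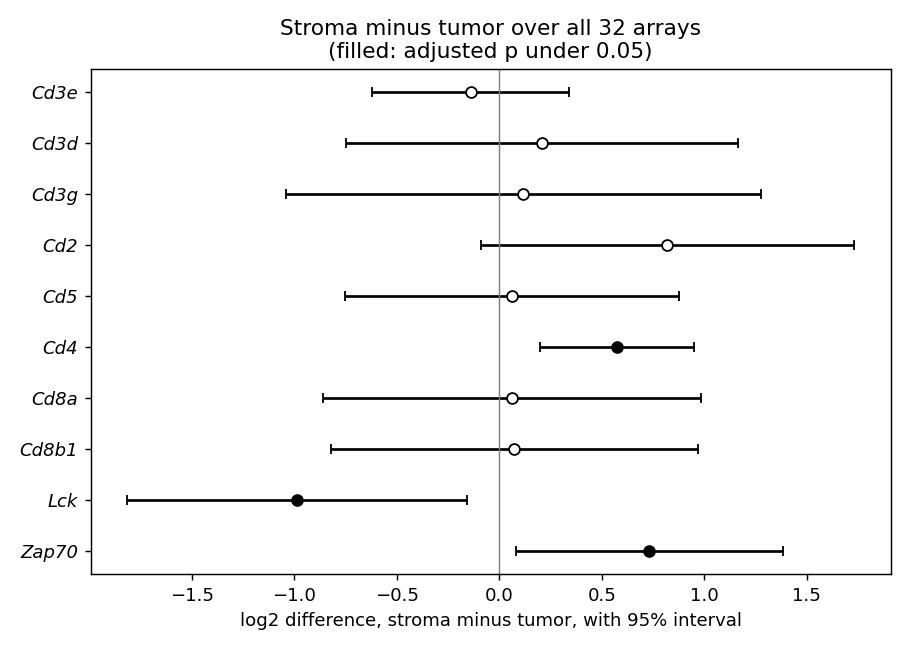
Log2 difference, stroma minus tumor, of each gene over 32 arrays, with 95% intervals from limma. Filled points, Cd4, Zap70 and Lck, passed an adjusted p of 0.05, and the intervals of the CD3 genes include 0.

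Each of these calls stood on a particular footing. That of Cd4 held on leaving out any single array (adjusted p 0.00298 to 0.0156) but was lost with the mean of both probes (0.35, adjusted p = 0.111), the second probe being well above background on 1 to 4 of 8 arrays per group and differing by 0.12. That of Zap70 was seen with its second probe too (0.89 ± 0.32, adjusted p = 0.0188 over 34970 probes in limma). It was lost on leaving out any one of 18 arrays, with 0.58 to 0.75 and adjusted p from 0.0511 to 0.0886. These were wild-type stroma 4, 5, 45 and 68, knockout stroma 15, 51, 59B, 81 and 99, wild-type tumor 5, 45 and 65, and each of the knockout tumors except 51 and 81. The Zap70 call was also lost with no filter (0.73, adjusted p = 0.0733 in limma) and with array weights (0.61, adjusted p = 0.0670).

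The call of Lck was lost on leaving out any one of 8 arrays: wild-type stroma 1, knockout stroma 49, 59B, 95 and 99, wild-type tumor 65, and knockout tumor 51 and 81. Its difference was then -0.96 to -0.86 with adjusted p from 0.0502 to 0.0658. Without wild-type stroma 1 and 9 it was -0.53 (adjusted p = 0.0660), and with the mean of both probes -0.82 (adjusted p = 0.0505). The second, dimmer Lck probe, well above background on 4 to 7 of 8 arrays per group, did not pass alone. It differed by -0.65 ± 0.35 (adjusted p = 0.110 over 34970 probes in limma). The difference of the brightest Lck probe was smallest without the arrays against their sex label, -0.51 (adjusted p = 0.157). The call was also lost without knockout tumor 51 and 81 (-0.86, adjusted p = 0.0820), with scan day as a block (-0.88, adjusted p = 0.0506) and with no filter (-0.99, adjusted p = 0.0554). Zap70 without the arrays against their sex label differed by 0.71 (adjusted p = 0.107). Cd2 passed without wild-type stroma 1 (1.05, adjusted p = 0.0266), without wild-type stroma 1 and 9 (1.20, adjusted p = 0.00958) and without knockout tumor 51 and 81 (1.10, adjusted p = 0.0305).

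Within a genotype, over the same fit, Cd4 was higher in knockout stroma than in knockout tumor by 0.83 ± 0.26 (SE, adjusted p = 0.00720 in limma, against 59.4% of genes called). In wild type it differed by 0.32 ± 0.26 (adjusted p = 0.353, 30.2% of genes called). Lck differed by -1.20 ± 0.57 in knockout (adjusted p = 0.0718) and by -0.77 ± 0.57 in wild type (adjusted p = 0.304). Zap70 differed by 0.61 in knockout and 0.85 in wild type, neither past the test. The difference between the genotypes is the interaction given above, which no member passed.

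The members were then set against each other across arrays, within each tissue. In stroma most followed the mean of the CD3 genes closely over 16 arrays: Pearson r was 0.96 for Cd8b1 and 0.95 for Cd2 and Cd5, and 0.91 for Lck, but 0.78 for Zap70, 0.76 for Cd8a and 0.51 for Cd4. In tumor r was 0.95 for Cd2, Cd5 and Zap70, 0.92 for Cd8b1, 0.86 for Cd8a and 0.78 for Lck, and 0.09 for Cd4. Spearman's rho in tumor was 0.94 for Cd2, 0.90 for Cd5 and Zap70, and 0.14 for Cd4. These are descriptions over arrays that share RNA amount, scaling and tissue make-up.

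Part of the likeness in tumor came from 2 arrays. Without knockout tumor 51 and 81, r with the CD3 mean was still 0.92 for Cd2 and 0.89 for Cd5 and Zap70, but 0.67 for Cd8b1, 0.59 for Cd8a and 0.33 for Lck. In stroma, without wild-type stroma 1 and 9, r was 0.95 for Cd2, 0.93 for Cd5, 0.90 for Cd8b1, 0.89 for Lck, 0.69 for Zap70, 0.62 for Cd4 and 0.41 for Cd8a. Each CD3 gene against the mean of the other CD3 genes had r of 0.93 to 0.98 in stroma and 0.75 (Cd3e) to 0.88 (Cd3d) in tumor, where without the 2 arrays r was 0.38 for Cd3e.

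**Figure D4:**
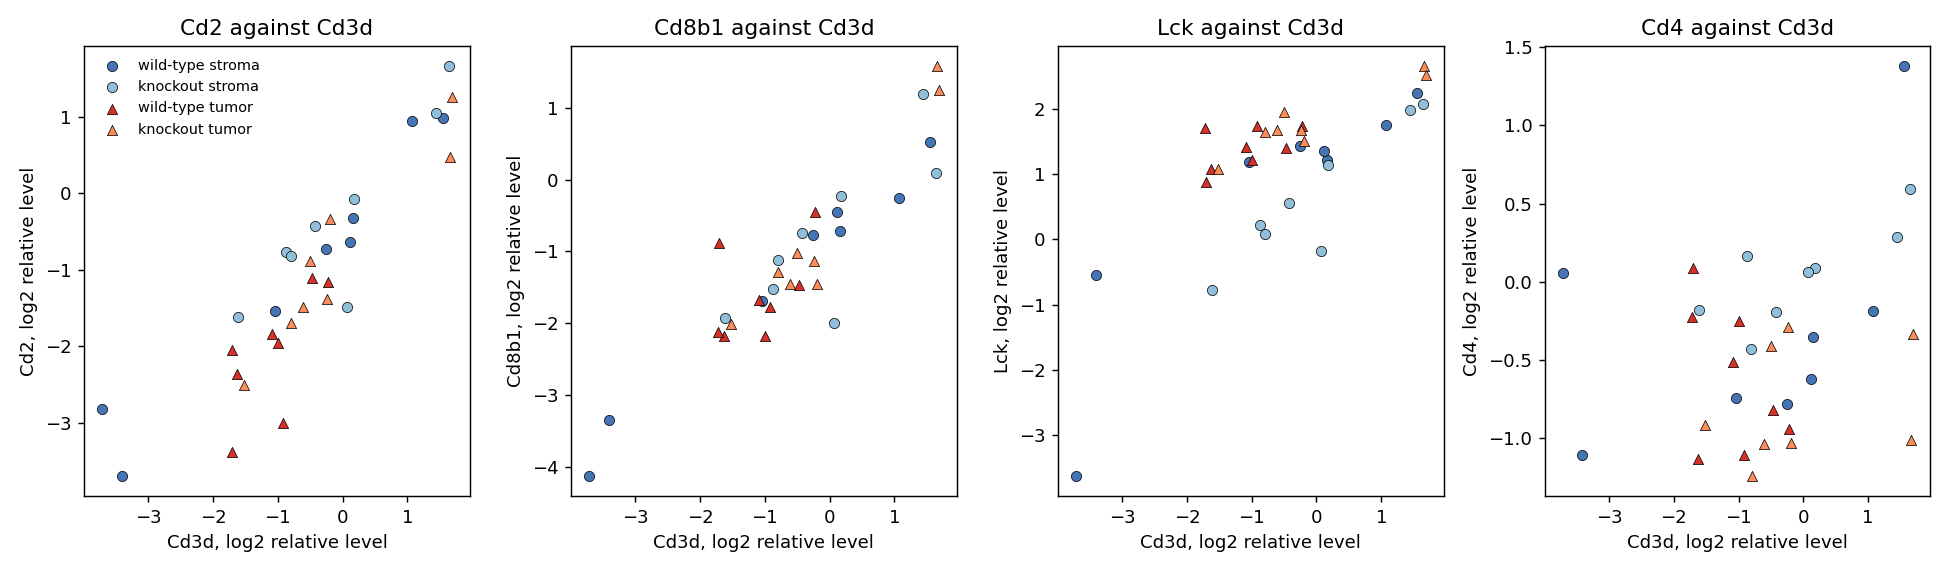
Log2 relative level of Cd2, Cd8b1, Lck and Cd4 (vertical axes) against that of Cd3d (horizontal axes) on each of 32 arrays, circles for stroma and triangles for tumor. Cd2 and Cd8b1 are high on the arrays where Cd3d is high in both tissues, Lck is at 0.87 or above on every tumor array, and Cd4 shows no such trend in tumor.

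Lck and Cd3d were set against each other on the same array, to see how their difference varied between groups. The difference of the log2 levels of Lck and Cd3d on the same array had a mean of 2.49 ± 0.49 (SD, n = 8) in wild-type tumor and 1.90 ± 0.69 in knockout tumor. In stroma it was 1.32 ± 0.90 for wild type and 0.68 ± 0.44 for knockout, and the ranges of the tissues overlapped. Over the 16 tumor arrays the SD was 0.48 for Lck, 0.52 for Cd3e and 1.02 for Cd3d. In stroma it was 1.47, 0.72 and 1.57 in that order. A narrower tumor range than that of Cd3d was thus not particular to Lck. The difference between Cd8b1 and Cd4 had means of -0.98 ± 0.77 in wild-type tumor, 0.09 ± 1.30 in knockout tumor, and in stroma -1.06 ± 1.48 for wild type and -0.83 ± 0.97 for knockout. It was highest, at 2.59, in knockout tumor 51. These differences were chosen after the values were seen and were not tested.

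The genes most like the CD3 mean were listed for each tissue, and Nkg7 was on both lists. In tumor, among 14158 genes, they were Ptprcap (r = 0.95), Klrd1, Cd6, Fasl, Cxcr6, Nkg7, Klrk1 and Skap1 (r = 0.92), over 16 arrays. Cd6 is a receptor related to CD5, Skap1 an adaptor of the receptor pathway, and Klrd1 and Klrk1 are receptors of NK cells and cytotoxic T cells. In stroma, among 14984 genes, they were Il2rb (r = 0.98), Nkg7, Ltb, Ctsw, Ccr7, Pglyrp2, Tnfrsf18 and Ly9 (r = 0.96). Nkg7 and Ctsw are products of cytotoxic lymphocytes and Ccr7 guides naive and central memory T cells to lymph nodes. Without the 2 farthest arrays r ranged from 0.76 to 0.87 in tumor and from 0.91 to 0.96 in stroma.

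Other genes of the receptor pathway gave a like picture between genotypes. Of 34 such genes, 28 were tested in tumor and 25 were higher in knockout (50.7% of all genes), with 0 past the test (0%) and 6 at an unadjusted p under 0.05 (3.33%). Their median was 0.41. Among those with the smallest p were Nfatc2, a transcription factor activated through calcium (1.02 ± 0.30, SE), Skap1 (0.97 ± 0.38) and Ptprcap, a partner of CD45 (0.95 ± 0.38). Without knockout tumor 51 and 81 the median of the members themselves was 0.35. The part of these arrays in the tumor values of the present list was not tested. In stroma 23 of 29 were higher (54.5% of all genes), with a median of 0.50 and 0 past the test. At an unadjusted p under 0.05, 3 were higher and 2 lower, against 28.2% of all genes in either direction.

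Between the tissues 8 of 30 of these genes passed as higher in stroma and 5 as higher in tumor, against 25.7% and 37.1% of all genes. The 4 with the smallest p were Prkcq, a kinase of the T cell synapse also abundant in skeletal muscle (5.55 ± 0.59 higher in stroma), Nfatc2 (1.10 ± 0.20 higher), and Lef1 and Tcf7, transcription factors of T cells and of Wnt signalling (-2.13 ± 0.38 and -1.77 ± 0.32). Each had an adjusted p of at most 2.95e-05 in limma. Skeletal muscle markers were all 6 higher in stroma (median 6.21), and their part in the value of Prkcq was not tested.

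Genes of T cell states were also counted. In tumor 10 of 16 tested were higher in knockout and 6 lower, while 50.7% of all genes were higher. Past the test were 0 (0% of all genes), and 2 had an unadjusted limma p under 0.05 (3.33%). The genes named were picked by smallest p and were all higher. They were Ifng, the cytokine interferon gamma (1.94 ± 0.75, SE), Ccr7 (0.96 ± 0.39), Icos (1.36 ± 0.64) and Il2ra (1.23 ± 0.64). The part of knockout tumor 51 and 81 in these tumor values was not tested. In stroma 14 of 18 were higher (54.5% of all genes), 0 past the test (0%). Between the tissues 5 of 18 passed as higher in stroma and 4 as lower, against 25.7% and 37.1% of all genes. Ikzf2 (3.14 ± 0.40, SE) and S1pr1 (1.98 ± 0.23) were higher and Prf1, the pore protein of cytotoxic cells, lower (-1.44 ± 0.24). Each had an adjusted p of at most 1.04e-05 in limma. Muscle and adipocyte markers were higher in stroma as well (medians 6.21 and 5.04). The part of cells other than T cells in these values was not tested.

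Sums of the markers of other cells were read on the same arrays. In tumor the NK cell sum ranged from 1.15 to 2.21 in wild type and from 1.22 to 4.59 in knockout, highest in knockout tumor 81 and 51 (4.50). The lymph node sum, of 6 of 7 markers on the array, ranged from 0.248 to 2.03 and from 0.300 to 6.87. It was highest in knockout tumor 81 and stood at 0.668 in knockout tumor 51. The neutrophil sum ranged from 66.4 to 522 in wild-type and from 54.4, in number 51, to 106 in knockout tumors. The macrophage sum was highest in knockout tumor 81 (102.7) and 51 (72.6), and the skeletal muscle sum was 747 in 81 and 4.90 in 51, around a group median of 66.3. Between genotypes all 6 muscle markers (median 1.90), all 6 macrophage markers (0.48) and all 7 cell cycle markers (0.37) had means higher in knockout (50.7% of all genes). So had 4 of 5 tested NK cell markers (0.95), 4 of 5 lymph node markers (1.05) and all 3 tested B cell markers (0.71). Of the dendritic cell markers 3 of 4 were higher (0.36). The members' median was 0.91, so a rise of that size was not particular to them. All 5 neutrophil markers were lower (-1.54). At an unadjusted limma p under 0.05 were 5 cell cycle, 4 neutrophil, 1 B cell and 1 dendritic cell markers, against 3.33% of all genes. The neutrophil sum was 280, 334 and 522 in wild-type tumor 9, 65 and 82, and at most 87.5 in the other wild-type tumors. Of all these lists no gene passed between genotypes, and their part in the members' values was not tested.

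In stroma the B cell sum ranged from 0.289 to 2.98 in wild type and from 1.06 to 6.75 in knockout, and the lymph node sum from 0.779 to 41.6 and from 7.87 to 52.4. Both were highest in wild-type stroma 4 and knockout stroma 15, the highest array of each group for Cd3d, Cd3g and Cd2. Between the tissues 4 of 5 lymph node markers, 3 of 5 B cell markers, 5 of 6 macrophage markers, 3 of 6 dendritic cell markers and all 5 mast cell and all 5 adipocyte markers passed as higher in stroma, against 25.7% of all genes. All 7 cell cycle markers and 1 dendritic cell marker passed as higher in tumor, against 37.1%. Of the B cell markers 1 or 2 of 7 in each group, and of the lymph node markers 1 of 6, were not well above background on any array of the group. Whether these cells account for the stroma levels of Cd4 or Zap70 was not tested.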

How the data were processed

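RNA of 32 tissue samples was hybridised to one-colour arrays, and per the submitters' processing notes the images were read with Agilent Feature Extraction 10.7.3.1. The deposited processed signal of each spot is an intensity, which the authors' software had corrected for background. The authors' deposited value table, on a log2 scale with unstated centring, was used as an alternative. Per the labels' protocols 200 ng of RNA was labelled per array.

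Control spots and outlier spots (58 to 483 per array) were left out, spots of a probe averaged, and log2 signals scaled by subtracting each array's 75th percentile (402 to 1133 in signal). Of 56605 probes 32994 were matched to RefSeq symbols, and 23611 kept the name in the file. The brightest probe stood for a gene. A gene entered a fit if it was well above background on 8 or more of its arrays, and was tested with limma 3.58.1 in R 4.3.3, with means for each genotype and sex (and tissue), and Benjamini-Hochberg adjustment over all genes tested, called at 0.05. The fit was tested on simulated data. Alternatives covered scaling, background, filter, probe choice, array weights, slide, scan day, replicate number and left-out arrays. The members, lists and some alternatives were chosen with earlier results of these data known. Named genes of a list were the 4 with the smallest p, and those of likeness the 8 with the highest r. Some genes that this rule names are not reported here. The files have no mean spot signal, so normexp used the median signal. No column of other samples was found.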

Additional observations from a re-analysis of the deposited data

Results flagged for a closer look

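Among 40 sets of 8 arrays, 1 for each of the 10 genes in each of the 4 groups, 1 held an array far from the others. Cd4 in wild-type stroma had its highest array, number 4, at 1.38 on the log2 scale, and the next array at 0.05. The gap was 0.532 of the range of the group. Chance gives such a gap in about 1 in 20 sets. The same array was the highest of its group for Cd3d (1.56) and Lck (2.25) and had the highest lymph node marker sum of its group (41.6), and the part of that tissue in its Cd4 level was not tested.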

How the results depend on the processing

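Every alternative chosen was run. Those without wild-type stroma 1 and 9, with scan day as a block and with the percentile over all spots that are not controls were added after seeing the data. Between genotypes in tumor, 0 members passed under each alternative, and Cd4 turned to 0.10 with slide as a fixed block. Between genotypes in stroma, 1 member (Cd4) passed with array weights, where Cd3e was -0.0002, Cd3g -0.13, Cd8a -0.38, Cd8b1 -0.19 and Lck -0.75. Without wild-type stroma 1 and 9, Cd3e was -0.19, Cd3d -0.31, Cd3g -0.45, Cd2 -0.09, Cd5 -0.24, Cd8a -0.07, Cd8b1 -0.22 and Lck -0.89. Lck was -0.32 in hosts labelled female alone, -0.19 with the mean of all probes, -0.09 with normexp and -0.01 with quantile scaling. It was -0.30 without the arrays against their sex label. Cd4 was -0.01 in hosts labelled male alone and -0.01 without wild-type stroma 65 and 82. Leaving out 1 array in turn gave ranges of -0.0041 to 0.34 for Cd3e and -0.64 to 0.34 for Lck. Over all genes, 0 calls became 8565 higher and 7448 lower with array weights, 2355 and 3153 without the arrays against their sex label, 4262 and 4419 without wild-type stroma 1 and 9, and 1101 and 3235 with all 32 arrays in 1 fit.

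Between tissues, the count of members that passed was 1 with no filter, 1 with the mean of all probes and 1 without the arrays against their sex label, and 1 to 3 on leaving out 1 array in turn. Of the members that did not pass, Cd3e was 0.01 with the mean of all probes, 0.06 without the arrays against their sex label and 0.05 without wild-type stroma 1 and 9, and Cd8a was -0.11 with the mean of all probes. Without wild-type stroma 65 and 82, Cd3g was -0.08, Cd5 -0.04, Cd8a -0.12 and Cd8b1 -0.02. Leaving out 1 array gave -0.11 to 0.48 for Cd3g, -0.09 to 0.28 for Cd5, -0.06 to 0.28 for Cd8a and -0.09 to 0.30 for Cd8b1. Scaling to probes bright on all arrays moved the median of all genes from -0.14 to -0.02, and Lck was then -0.86 (adjusted p = 0.0814, limma).

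For the interaction, 1 member, Cd4, passed with array weights (0.81, adjusted p = 0.00946, limma). With slide as a fixed block Cd3e was 0.43, Cd3d 1.27, Cd3g 1.47, Cd2 0.48, Cd5 0.96, Cd8a 0.65, Cd8b1 0.72, Lck 0.74 and Zap70 0.41. With scan day as a block Cd3e was 0.08, Cd3d 0.20, Cd3g 0.35, Cd8a 0.08, Cd8b1 0.14 and Zap70 0.15. Without knockout tumor 51 and 81 Cd3e was 0.12, Cd3d 0.19, Cd3g 0.38, Cd8a 0.27, Cd8b1 0.37 and Zap70 0.27, and without wild-type stroma 65 and 82 Cd3g was 0.13 and Lck 0.06. Cd3e was 0.01 with the percentile of bright probes and 0.10 with the mean of all probes. Leaving out 1 array gave -0.34 to 0.04 for Cd3e, -0.88 to 0.0023 for Cd3d, -0.98 to 0.21 for Cd3g, -0.79 to 0.01 for Cd8a, -0.78 to 0.05 for Cd8b1 and -0.47 to 0.06 for Zap70. Over all genes, 0 calls became 6361 higher and 6635 lower with array weights, 583 and 1547 without the arrays against their sex label, and 2751 and 3610 without wild-type stroma 1 and 9. The cause of these shifts was not tested.

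Stroma and tumor share 15 replicate numbers, and the correlations of their deviations from the group means ran from -0.123 to 0.354, with 14 of 15 above 0 and 8 above 0.1. Of the 15 stroma arrays 4 were most like the tumor array of their own number, and of the tumor arrays 1 was most like its stroma array. The labels do not say that a number marks an animal. Numbers 95 and 99 went against their sex label in both tissues, but number 9 only in stroma. Its mean of the 4 Y-linked genes was -6.79 in wild-type stroma and -3.13 in wild-type tumor. The replicate number was therefore not used in the reported fit. With the replicate number as a random block 3 members passed between tissues, with it as a fixed block 2 (Cd4 and Zap70; Lck was -0.96, adjusted p = 0.0651, limma), and 0 for the interaction under either block. Dim probes, such as that of Cd8a, limit what can be seen.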
